A study of Mus musculus with 8 samples.

Results

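The genes examined encode the core of the TGF-beta signalling chain: the ligands *Tgfb1* and *Tgfb3*, the receptors *Tgfbr1* and *Tgfbr2*, the signal carriers *Smad2*, *Smad3* and *Smad4*, the inhibitor *Smad7*, and the nuclear repressors *Ski* and *Skil*. They were chosen by gene symbol, and all 10 of the 10 were found among the 13704 genes listed in the deposited count tables. The tables hold uniquely assigned RNA-seq reads per gene for in vitro Th17 cells, 1 library from WT mice and 1 from TRIM28fl/flxCD4cre mice (hereafter *Trim28*-/-), both on the C57BL/6 strain. In the *Trim28*-/- mice, loxP-flanked *Trim28* alleles are removed by Cre driven by the *Cd4* promoter, so deletion takes place in developing T cells and not only in Th17 cells, and the WT library is labelled wild type without mention of Cre. For both libraries, sorted naive CD4+ T cells spent 3 days in culture with TGF-beta at 0.5 ng/ml and IL-6 at 20 ng/ml, and RNA was taken after a second stimulus through CD3. The ages of the mice used for the libraries, and whether animals were pooled, are not given in the sources used here.

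TGF-beta is secreted in a latent form and, once released, binds the type II receptor TGFBR2, which phosphorylates the type I receptor TGFBR1. TGFBR1 then phosphorylates SMAD2 and SMAD3, which join SMAD4 and enter the nucleus to regulate target genes, while SKI and SKIL (also called SnoN) bind SMAD complexes and repress them. SMAD7 is induced by the pathway and blocks the receptor, closing a feedback loop. In CD4+ T cells, TGF-beta supports both Treg and, together with IL-6, Th17 differentiation. TRIM28 (KAP1) is a chromatin cofactor best known as a co-repressor of KRAB zinc finger proteins.

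In units of 1000000 reads, the depth was 6.65 for WT, on 13078 genes, and 6.19 for *Trim28*-/-, on 12754 genes. With 1 library per genotype, no difference below has a replicate check, and each interval is an exact 95% interval that covers counting error only. *Trim28*, on chromosome 7 from 13024152 to 13031032, had 4485 reads in WT cells and 180 in *Trim28*-/- cells, 4.33% of the WT level. Of the fixed markers, 8 of 8 CD4 T and Th17 genes had reads in each library (4635 CPM summed in WT and 3354 CPM in *Trim28*-/-, where CPM is reads per 1000000 reads). Markers of other cells were low. In the WT and *Trim28*-/- libraries, summed B-cell markers (4 of 4 with reads) stood at 11.3 and 7.11 CPM, CD8 T-cell markers (2 of 2) at 7.97 and 4.69 CPM, NK markers (1 of 3) at 8.72 and 11.3 CPM and stromal and endothelial markers (2 of 5) at 6.62 and 4.69 CPM. *Lyz2*, *Csf1r* and *Adgre1* were at 0 in both libraries and the myeloid sum was at most 0.485 CPM, and the 5 platelet and erythroid markers were all at 0.

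The type I receptor gene *Tgfbr1* was 2.53-fold lower in the *Trim28*-/- library, and *Smad3*, which carries the receptor's signal, was 2.06-fold lower. The other 8 genes of the chain stayed within 2-fold. Of the 10 genes, 2 were at least 2-fold lower and 0 at least 2-fold higher, against 7.94% and 3.75% of the 10881 genes that had 10 or more reads in all. All 10 members passed that minimum. The counting interval of the log2 fold change (KO/WT) lay below 0 for 5 members and above 0 for 2, where the background was 25.0% and 23.5%, and it included 0 for 3. The value was below 0 for 7 of the 10, against 51.4% of all genes tested. The median log2 fold change was -0.25 for the members and -0.02 over all genes tested. In such bulk RNA, fewer cells expressing a gene and less of its RNA per cell cannot be told apart.

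**Figure D1:**
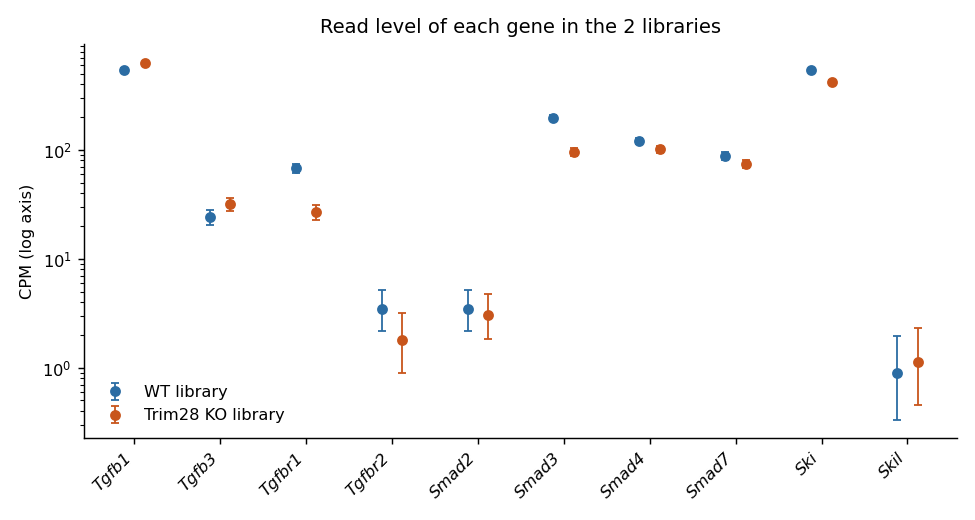
Level of the 10 genes in CPM (log axis) in the WT library (blue) and the *Trim28*-/- library (orange), with exact 95% Poisson intervals of the counts. The intervals of *Tgfbr1* and *Smad3* lie far apart between the libraries, and those of *Tgfbr2*, *Smad2* and *Skil* overlap.

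The sequences upstream of *Tgfbr1* and *Smad3* are shown because these are the 2 genes past 2-fold. Each is the 250 bases before the RefSeq start, from 5′ to 3′ on the gene's strand in GRCm38.p6, with GGGCGG, the GC box letters, or its reverse complement in capitals.
*Tgfbr1*, chr4:47352972-47353221, plus strand: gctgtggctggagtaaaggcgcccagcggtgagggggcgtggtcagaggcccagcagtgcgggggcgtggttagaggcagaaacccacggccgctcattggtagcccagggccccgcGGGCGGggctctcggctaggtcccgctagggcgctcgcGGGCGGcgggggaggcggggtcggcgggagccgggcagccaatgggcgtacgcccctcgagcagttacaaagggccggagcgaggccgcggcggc
*Smad3*, chr9:63757995-63758244, minus strand: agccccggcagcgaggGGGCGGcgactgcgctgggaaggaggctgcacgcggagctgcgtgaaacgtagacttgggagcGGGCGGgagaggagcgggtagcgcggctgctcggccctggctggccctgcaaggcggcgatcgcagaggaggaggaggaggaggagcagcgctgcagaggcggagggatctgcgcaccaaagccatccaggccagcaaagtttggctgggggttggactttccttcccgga
Both windows are rich in G and C (74.8% and 69.2%, against a median of 52.4% over 32851 RefSeq windows of the same length) and in CpG dinucleotides (29 and 22, against a median of 6). The windows of *Ski* (87.6%, 53 CpG) and *Tgfb1* (75.2%, 21 CpG) held more G and C than either. That of *Tgfbr2* held less (58.4%, 12 CpG). The 2 printed windows each held 2 GGGCGG matches, a motif found on either strand in 32.7% of all windows. Sharing it does not set the pair apart from the other members, since *Ski* and *Tgfb1*, which stayed within 2-fold, held 5 matches each. *Tgfbr1* also held 2 matches of CCAAT, as did *Tgfbr2* (33.8% of all windows). A further *Tgfbr1* window lies at an alternative start on chromosome 4 and held 1 CAGACA, a SMAD-binding letter run present in 17.1% of windows. In the 6 windows of *Tgfbr1*, *Tgfbr2*, *Smad3*, *Ski* and *Tgfb1*, neither the palindromic SMAD element GTCTAGAC (0.167% of windows), nor the ROR half-site AGGTCA (14.0%), the STAT letters TTCNNNGAA (7.02%) or TATAAA (12.4%) was found, which says only that these letters are not in these windows. *Tgfb3*, *Skil*, *Smad2*, *Smad4* and *Smad7* were not among the windows used here.

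Both ligand genes were slightly higher in the *Trim28*-/- library. *Tgfb1*, which encodes the main TGF-beta of lymphocytes and lies on chromosome 7 from 25687002 to 25705077, had 3602 reads (542 CPM) in WT and 3855 reads (623 CPM) in *Trim28*-/- cells. *Tgfb3*, which encodes a ligand linked to pathogenic Th17 cells and lies on chromosome 12 from 86056743 to 86079041, had 161 reads (24.2 CPM) and 196 reads (31.7 CPM). The log2 fold changes were 0.20 (95% interval from 0.14 to 0.27) for *Tgfb1* and 0.39 (from 0.08 to 0.70) for *Tgfb3*, both past counting error and far from 2-fold. *Tgfb3* reads per *Tgfb1* read were 0.0447 in WT and 0.0508 in *Trim28*-/-, a change of 0.19 on the log2 scale with an interval (-0.13 to 0.50) that includes 0.

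Both receptor genes had fewer reads in the *Trim28*-/- library, but only *Tgfbr1* had a difference past counting error. *Tgfbr1*, the type I receptor kinase, on chromosome 4 from 47353222 to 47414926 with 9 exons in its longest RefSeq transcript, had 449 reads (67.5 CPM) in WT and 165 reads (26.7 CPM) in *Trim28*-/- cells. Its log2 fold change was -1.34, and the whole interval (-1.61 to -1.08) lay past 2-fold. At percentile 4.57 of all genes tested, it was the lowest of the 10 members. *Tgfbr2*, the ligand-binding type II receptor kinase on chromosome 9 from 116087695 to 116175363, had only 23 reads in WT and 11 in *Trim28*-/-. Its log2 fold change of -0.93 had an interval from -2.14 to 0.13, so no difference was detectable on so few reads. Receptor and ligand differed in opposite directions between the libraries. There were 0.125 *Tgfbr1* reads per *Tgfb1* read in WT and 0.0428 in *Trim28*-/-. That ratio, in which the library totals play no part, changed by -1.54 on the log2 scale (-1.82 to -1.27). It was not corrected for transcript length, which is 5756 bases for *Tgfbr1* and 2573 for *Tgfb1*. The length curve described below stands at -0.28 and 0.09 for these genes.

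Of the 2 receptor-regulated SMADs, *Smad3* was lower and *Smad2* was too sparse to tell. *Smad3*, on chromosome 9 from 63646766 to 63757994, had 1319 reads (198 CPM) in WT and 594 reads (96.0 CPM) in *Trim28*-/- cells, 48.4% of the WT level. Its log2 fold change was -1.05 and its interval, from -1.19 to -0.91, included the 2-fold limit while lying well below 0. *Smad2*, its close relative, on chromosome 18 from 76241090 to 76311748, was counted 23 and 19 times. Its log2 fold change was -0.16 (-1.13 to 0.77), and turned to 0.25 after the correction for transcript length described below.

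*Smad4*, the partner shared by all receptor-regulated SMADs, and *Smad7*, the inhibitor, were a little lower in the *Trim28*-/- library and stood in nearly the same proportion to each other in both libraries. *Smad4* (chromosome 18 from 73634790 to 73703791) had 802 reads (121 CPM) in WT and 625 (101 CPM) in *Trim28*-/-, a log2 fold change of -0.25 (-0.41 to -0.10). *Smad7* (chromosome 18 from 75367365 to 75395935) had 588 reads (88.4 CPM) and 460 (74.4 CPM), a log2 fold change of -0.25 (-0.43 to -0.07). *Smad4*, *Smad7* and *Smad2* lie within 2.68 Mb of one another. There were 0.733 *Smad7* reads per *Smad4* read in WT and 0.736 in *Trim28*-/-, a log2 change of 0.01 (-0.23 to 0.24). The proportion of *Smad3* to them did differ, which restates its larger fold change and is not a separate result. Its reads per *Smad4* read went from 1.64 to 0.950 (log2 change -0.79, from -1.0 to -0.58), and *Smad7* reads per *Smad3* read from 0.446 to 0.774 (log2 change 0.80, from 0.57 to 1.03). *Tgfbr1* reads per *Smad3* read were 0.340 in WT and 0.278 in *Trim28*-/-, a log2 change of -0.29 with an interval (-0.60 to 0.005) that includes 0.

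*Ski*, the repressor of SMAD complexes on chromosome 4 from 155154075 to 155222535, was one of the genes of the chain with the most reads, 3582 (539 CPM) in WT and 2615 (423 CPM) in *Trim28*-/- cells. Its log2 fold change was -0.35 (-0.42 to -0.28), small but past counting error. Because *Smad3* was lower by more, *Ski* reads per *Smad3* read were 2.72 in WT and 4.40 in *Trim28*-/-, a log2 change of 0.70 (0.54 to 0.86). *Skil*, which encodes SnoN and lies on chromosome 3 from 31095058 to 31122923, had 6 reads in WT and 7 in *Trim28*-/-. Its interval, from -1.47 to 2.18, allows a change past 2-fold in either direction.

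**Figure D2:**
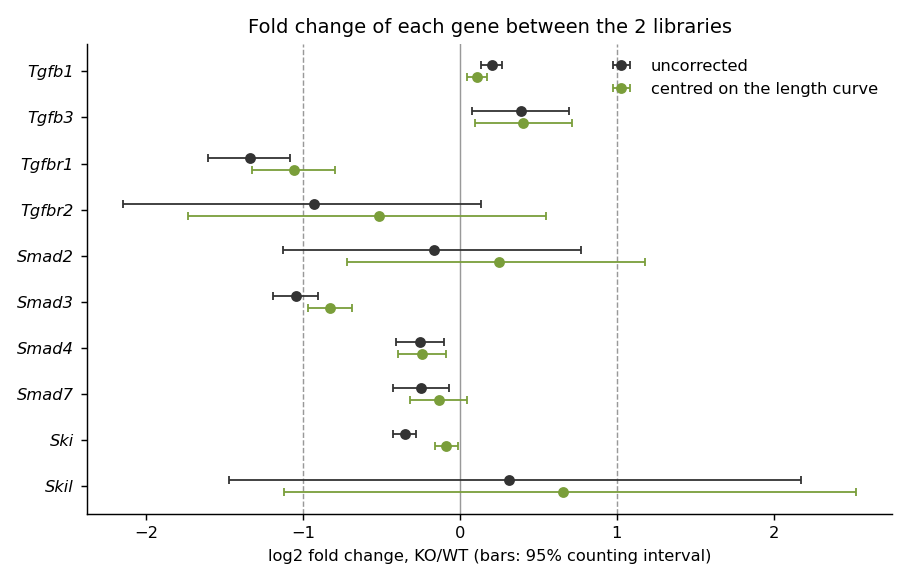
Log2 fold change (KO/WT) of the 10 genes with exact 95% counting intervals, uncorrected (black) and after taking off a loess curve of length (green), with dashed lines at 2-fold. *Tgfbr1* moves from -1.34 to -1.06 and *Smad3* from -1.05 to -0.82 with the correction, and *Smad2* crosses 0.

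The members have long transcripts, and length went with the fold change across all genes. The median of the longest annotated transcript was 5306 bases for the members and 3317.5 bases for all genes tested. Spearman's rho of length with log2 fold change was -0.37 over 10792 genes, which are not independent replicates. Of 10 groups of genes of rising length, the upper 3 held *Smad3*, *Ski*, *Tgfbr1*, *Skil*, *Smad2* and *Tgfbr2*. In the group of *Smad3*, 10.6% of genes were at least 2-fold lower, and in the group of *Tgfbr1* and *Ski* 13.1% were. Fold changes were therefore also centred on a loess curve against length. *Tgfbr1* then stood at -1.06 (interval from -1.32 to -0.80), still past 2-fold, and *Smad3* at -0.82 (-0.97 to -0.68), no longer so. *Smad4* (-0.24), *Tgfb1* (0.11) and *Tgfb3* (0.40) moved by less than 0.1, while *Ski* came to -0.09 (-0.16 to -0.01), *Smad7* to -0.14 (-0.31 to 0.04), *Tgfbr2* to -0.51 and *Skil* to 0.66. The length used was 3384 bases for *Smad4* and 8092 for *Tgfbr2*, while their RefSeq exons cover 7628 and 4788 bases. Near the longer length of *Smad4*, at 7668 bases, the curve stands at -0.40, below the uncorrected -0.25 of *Smad4*. On that length its corrected value would therefore lie above 0, and its small move rests on the shorter one. The corrected value of *Tgfbr2*, and the counts and median that include both genes, were not tested on those other lengths. After the correction 1 of the 10 members was at least 2-fold lower and 0 higher, against 6.77% and 3.57% of all genes. The value was below 0 for 6 members (49.7% of all genes), *Smad4* on its shorter length among them. The median over the 10 members was -0.11. The part of length in these differences was not tested otherwise.

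**Figure D3:**
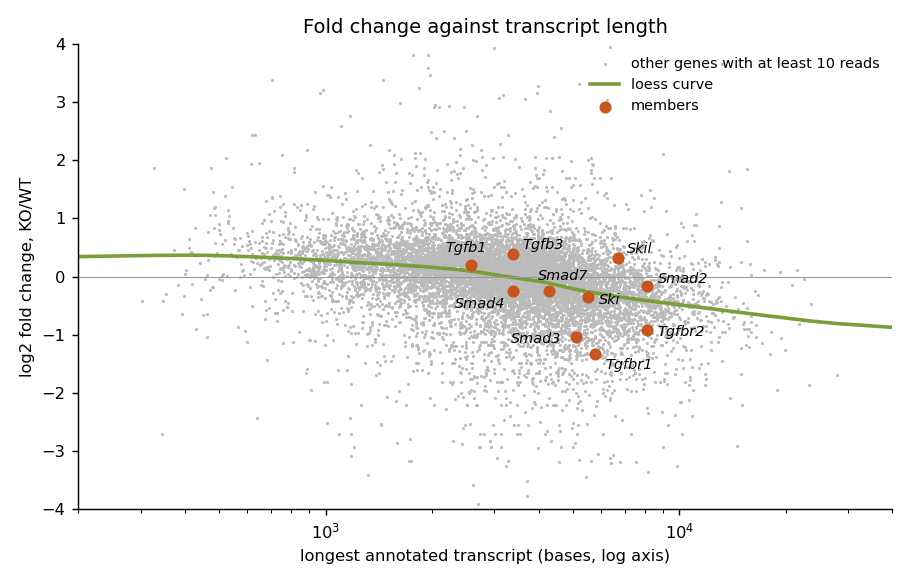
Log2 fold change (KO/WT) against the length of the longest annotated transcript (log axis) for all genes tested, with the loess curve (green) and the 10 members (orange). The axes leave out 63 genes, and *Tgfbr1* and *Smad3* lie below the curve, at -1.06 and -0.82 from it.

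Levels between genes were compared per length, as RPKM (reads per kilobase of the longest annotated transcript per 1000000 reads). In the WT library the order was *Tgfb1* (211 RPKM), *Ski* (97.5), *Smad3* (39.0), *Smad4* (35.6), *Smad7* (20.7), *Tgfbr1* (11.7), *Tgfb3* (7.16), *Smad2* (0.428), *Tgfbr2* (0.427) and *Skil* (0.134). The counting intervals of *Smad3* (36.9 to 41.1) and *Smad4* (33.2 to 38.2) overlapped, as did those of the last 3 genes, and the other neighbours were apart. In the *Trim28*-/- library *Smad3* (18.9 RPKM) stood below *Smad4* (29.9), with an interval that overlapped that of *Smad7* (17.4). The place of *Smad4* rests on the transcript length used, 3384 bases, while its RefSeq exons cover 7628 bases. For *Smad3* both lengths were 5090 bases. On the longer length *Smad4* would stand below *Smad3* in both libraries. Its 121 CPM in WT and 101 CPM in *Trim28*-/- cells would then be spread over 7628 bases. *Smad3* had 198 and 96.0 CPM over 5090 bases. The place of *Smad3* below *Smad4* in the *Trim28*-/- library thus rests on the shorter length. *Tgfbr1* (4.63 RPKM) stood below *Tgfb3* (9.37), the reverse of their order in WT.

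The 3 members with the lowest levels, *Smad2*, *Tgfbr2* and *Skil*, are all genes with more than 1 transcript. In RefSeq, *Tgfb1*, *Tgfb3*, *Smad3* and *Smad7* each have 1 curated mRNA transcript (accession class NM), *Ski* and *Tgfbr2* have 2, and *Tgfbr1*, *Smad2*, *Smad4* and *Skil* have 3. Over all genes tested, the median WT level was 12.6 RPKM for genes with 1 such transcript, 6.15 for genes with 2 and 4.40 for genes with 3 or more. The exonic bases that belong to a single transcript were 1.57% in *Tgfbr2*, 1.95% in *Skil*, 7.32% in *Smad2*, 4.55% in *Tgfbr1*, 3.29% in *Smad4* and 2.25% in *Ski*. The last 3 had 614, 1427 and 6197 reads over both libraries, as gene totals without positions along the exons. How reads that fit several transcripts were counted is not given in the sources used here. Its part in these levels, and in the fold changes of these genes, *Tgfbr1* among them, was not tested. The values of *Smad2*, *Tgfbr2* and *Skil* are therefore given as read levels only.

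**Figure D4:**
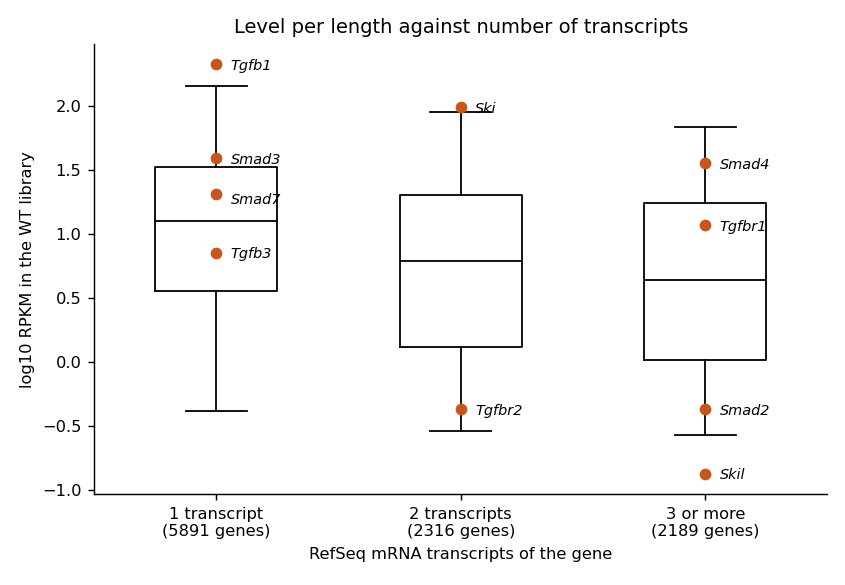
WT level (log10 of RPKM) of the tested genes with a WT level above 0, grouped by number of curated RefSeq mRNA transcripts. Boxes show quartiles and median and whiskers the 5th and 95th percentiles, with medians of 12.6, 6.15 and 4.40 RPKM, and *Skil* (0.134 RPKM) lies under the lower whisker of its group.

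A list of 72 other TGF-beta, activin and BMP pathway genes was set beside the members. Of these, 61 had reads and 52 had at least 10 over both libraries. At least 2-fold lower were 8 of the 52 and at least 2-fold higher 2, against the same 7.94% and 3.75%, and the interval lay below 0 for 23 and above 0 for 7, against 25.0% and 23.5% of all genes tested. The median log2 fold change was -0.28, and -0.08 after the length correction, under which 5 were at least 2-fold lower and 2 higher. The shares of 7.94% and 3.75% also stand beside the counts by role below, and groups this small can hold none at those shares. The limit on genes with several transcripts holds here too, for example for *Furin*, *Smurf1* and *Trim33* (2 curated transcripts each), *Smad5* (3) and *Zeb2* (6).

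The largest differences were among ligands and the proteins that mature or hold them, where 4 of 10 genes were at least 2-fold lower and 1 higher. Over all genes tested the shares were 7.94% and 3.75%. *Inhba*, whose product forms activin A, had 104 reads in WT and 10 in *Trim28*-/- cells (log2 fold change -3.21, from -4.38 to -2.34). *Furin*, the protease that cleaves the TGF-beta precursor, had 126 and 22 reads (-2.39, from -3.14 to -1.75). *Inha*, the inhibin alpha subunit, had 107 and 36 reads (-1.45), and the TGF-beta family ligand gene *Gdf11* had 73 and 33 (-1.03). *Gdf11* came within 2-fold with the length correction (-0.94) and with a pseudocount of 5 (-0.93). *Bmp7*, a bone morphogenetic protein gene, ran the other way with 5 and 42 reads (3.05, from 1.84 to 4.87). *Nrros*, which holds latent TGF-beta at the cell surface, was within 2-fold with 171 and 89 reads (-0.83). *Lrrc32* had the most reads of this group, 852 and 872, and hardly differed (0.14, from 0.0002 to 0.28).

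Among 7 other receptor genes, the activin receptor *Acvr2a* (223 and 96 reads, log2 fold change -1.11) and the BMP receptor *Bmpr2* (190 and 86, -1.03) were at least 2-fold lower. The decoy receptor gene *Bambi* was at least 2-fold higher on few reads, 5 and 16 (1.69, from 0.27 to 3.59). Under 2-fold were *Bmpr1a* (147 and 73 reads, -0.90) and the co-receptor *Tgfbr3* (1002 and 583, -0.68). With the length correction *Acvr2a* came to -0.83 and *Bmpr2* to -0.46, both within 2-fold. A loess curve against GC content in place of length also brought them within it, to -0.96 and -0.89, as did a pseudocount of 5 for *Bmpr2* (-0.99).

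Other SMADs and the enzymes that mark them for degradation or spare them were measured next. *Smad1*, a BMP-pathway SMAD, had 230 and 222 reads (log2 fold change 0.05, from -0.22 to 0.33), *Smad5* had 9 and 6, and the inhibitory *Smad6* had 0 and 5, under the minimum for a fold change. Where 7.94% of all genes tested were at least 2-fold lower and 3.75% higher, 0 of 9 ubiquitin ligases and deubiquitinases of the pathway were either. Among them *Smurf2*, a ligase that SMAD7 brings to the receptor, had 275 and 298 reads (0.22, from -0.02 to 0.46), *Smurf1* had 24 and 18, and *Trim33*, a TRIM28 relative that acts on SMAD4, was counted 16 and 12 times (interval from -1.52 to 0.86). *Rnf111*, the ligase that degrades SKI and SKIL, had 1001 and 598 reads (-0.64, from -0.79 to -0.49).

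Of 8 adaptors and kinases, 1 passed 2-fold, the endosomal adaptor *Zfyve16* (132 and 57 reads, log2 fold change -1.10, and -0.79 with the length correction or -0.95 with the GC curve). Of 9 SMAD co-repressors and co-activators, 1 did, the co-repressor *Zeb2* (53 and 17 reads, -1.51, and -1.06 with the correction). The acetyltransferases *Ep300* (p300; 2694 and 1409 reads, -0.83) and *Crebbp* (1766 and 1082, -0.60) and the co-repressor *Ncor1* (483 and 256, -0.81) were lower by less than 2-fold, and these 3 stood at -0.36, -0.09 and -0.36 with the correction. Of 7 TGF-beta target genes with enough reads, 0 passed 2-fold, against the same 7.94% lower and 3.75% higher. *Id1* (19 and 9 reads, -0.93, from -2.30 to 0.24) came to -1.18 with the correction. The feedback gene *Pmepa1* had 591 and 604 reads (0.14, from -0.03 to 0.30), an interval that leaves out any 2-fold difference between these libraries.

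**Figure D5:**
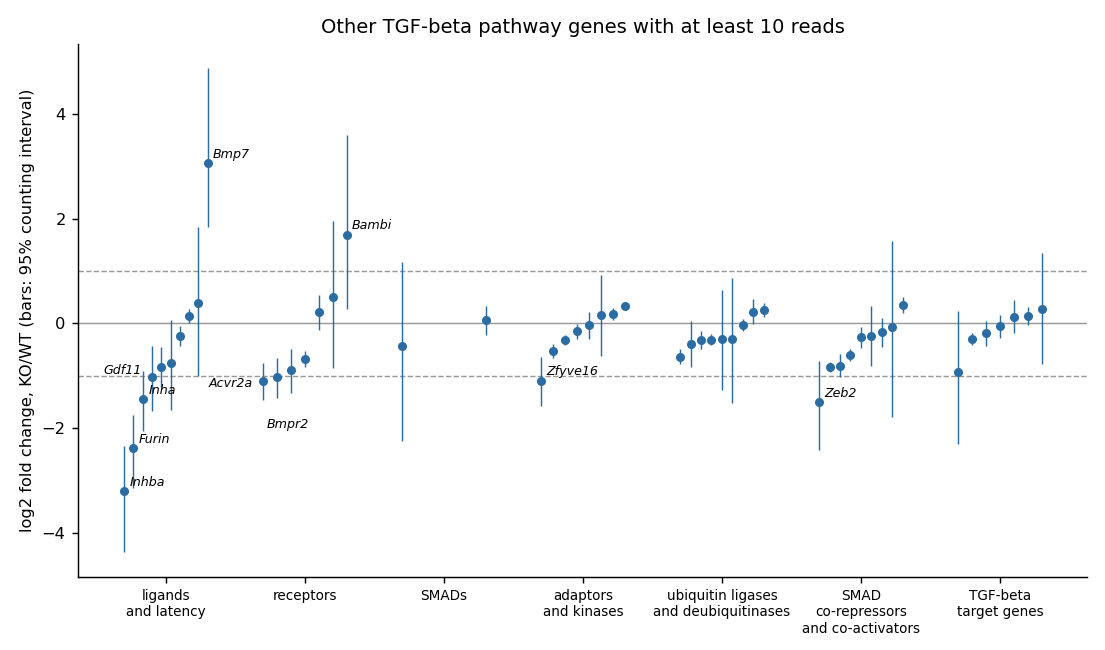
Log2 fold change (KO/WT) with exact 95% counting intervals of the 52 other pathway genes with at least 10 reads, by role, with dashed lines at 2-fold and names at genes past it. Points past 2-fold run from *Inhba* (-3.21) to *Bmp7* (3.05), and none is a SMAD, a ubiquitin enzyme or a target gene.

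All fold changes of the members and the other pathway genes compare 2 libraries and not 2 genotypes. Under edgeR's exact test with an assumed culture-to-culture variation (CV) of 0.2, neither *Tgfbr1* nor *Smad3* was called, and of the pathway list 3 of the 10 genes past 2-fold were.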

How the data were processed

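RNA-seq of 2 of the 8 samples was analysed, and the ChIP-seq samples were not used here. The authors mapped reads to mm10 with SOAP2 and deposited un-normalized counts of reads uniquely assigned to each gene, whose total stands in each file heading. The submitters' processing notes also name HTSeq, with no role. Annotation and strand setting are not given in the sources used here. A gene missing from 1 table was given 0 reads.

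Counts were divided by library totals, and log2 fold changes used 0.5 added to each count. Exact (Clopper-Pearson) 95% intervals came from the *Trim28*-/- share of the reads (SciPy 1.17.1). No test of genotype is possible with 1 library each, and tests on the reads, binomial or with an assumed variation, were used only as alternatives. The limit was 2-fold, among genes with 10 or more reads in all. Intervals treat reads as independent, although PCR copies are not. A level of 3 reads is 0.451 CPM in WT and 0.485 CPM in *Trim28*-/-.

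Positions and promoter windows came from RefSeq (GRCm38.p6, the assembly behind mm10), and transcript lengths from GENCODE M21 (99.2% of genes tested). The loess span was 0.3 (statsmodels 0.14.6). Alternatives used edgeR 4.0.16 and DESeq2 1.42.0. Calculations were tested on simulated data. Pathway genes were named if past 2-fold, or past 1.5-fold with an interval leaving out 0, before or after length correction, with 7 close relatives and regulators in any case. *Pmepa1* and *Lrrc32* are named outside this rule. The pairs of genes set in ratio were chosen after their values were seen, and no ratio was corrected for transcript length. Members and lists were chosen with earlier results of these data known.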

Additional observations from a re-analysis of the deposited data

How the results depend on the processing

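The number of members at least 2-fold different (2) was 1 with the length correction and 0 when an adjusted p under 0.05 from edgeR's exact test was also required, at an assumed coefficient of variation of 0.2 or of 0.4. For the pathway list (10) it was 17 without a filter on reads, 19 at 1.5-fold, 3 at variation 0.2 and 0 at 0.4. For all genes (1272) it was 813 with a pseudocount of 5, 3164 without a filter, 601 with at least 10 reads in each library, 3097 at 1.5-fold, 196 at variation 0.2 and 16 at 0.4. *Smad2* changed sign with the length correction (0.25), as did *Trim33* (0.15). The cause of these changes was not tested, beyond the fewer genes that a stricter filter or limit leaves. With the loess curve against GC content the pathway list had 7 genes past 2-fold. *Tgfbr1* was past 2-fold under the 3 other scalings, a pseudocount of 5 and both curves, and *Smad3* under these except the length curve. TMM, DESeq2's size factors and upper-quartile scaling moved the median of all genes by at most 0.02. The intervals of *Tgfbr2*, *Smad2* and *Skil* include 0 and reach past 2-fold, so their few reads limit what they can show. The parts of depth and of the counting of reads that fit several transcripts were not tested. No paired analysis was possible because there is 1 library per genotype, and for the same reason no library could be left out.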
